A study of Mus musculus with 7 samples.

Results

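The genes described here are 7 let-7 regulated genes of stem and progenitor cells, Hmga1, Hmga2, Lin28a, Lin28b, Igf2bp1, Igf2bp2 and Igf2bp3, in primary neurospheres grown from the hippocampus of adult mice with and without deletion of Med23, a subunit of the Mediator complex. They were taken by symbol from a deposited table of 24346 genes, in which all 7 are listed. Values are FPKM (fragments normalised to transcript length and to the mapped fragments of the library), which the authors calculated for each library. Each library came from the neurospheres of a single mouse after 8 days of culture, and 3 libraries of Med23 CKO were set against 4 of control. Values by library are given throughout in the order WT_116, WT_213, WT_215, WT_220 for control and KO_117, KO_214, KO_218 for Med23 CKO, where the numbers are those of the mice.

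Med23 CKO mice carry Nestin-CreER with both Med23 alleles floxed, and the controls, labelled wild type, were littermates that per the study's methods carried 1 or 2 floxed alleles and not the deletion. The methods name no Nestin-CreER for these controls. If they lacked it, effects of the activated transgene and of Med23 loss cannot be told apart here. All mice were on the C57/BL6 strain, were 2 months old and, in both groups, were gavaged with tamoxifen (200 mg/kg on each of 5 days), the agent that activates Cre in cells that express the transgene; the methods place this treatment at an earlier age for cultures than the labels do. The Nestin promoter drives Cre in neural stem cells and can also be active in endothelial cells. Sorting of the cultured cells was not described, so that recombined, unrecombined and other cells were measured together.

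The let-7 family are small RNAs that accumulate as progenitors mature and that lower the output of mRNAs carrying matches to their seed in the 3′ untranslated region (UTR). Hmga1 and Hmga2 are small chromatin proteins that bind AT-rich DNA, and Hmga2 is known to sustain self-renewal of fetal and young neural stem cells, in which it declines with age as let-7b increases. Lin28a and Lin28b bind let-7 precursors and block their processing, and let-7 in turn represses both. Igf2bp1, Igf2bp2 and Igf2bp3 are RNA-binding proteins that govern stability, transport and translation of mRNAs, Igf2 among them, and Igf2bp2 is in addition a known target of Hmga2.

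The sequences that tie these genes together are the mature let-7 RNAs and their matches. RefSeq (GRCm38.p6) gave 9 distinct mature forms named 5p from 11 mouse loci, and all 9 share the same bases 2 to 8, printed in capitals. The let-7a-2 locus, whose host is described below, was not among these 11. Those of let-7a, let-7b, let-7i and miR-98 are shown because they differ from each other outside the seed.
let-7a-5p: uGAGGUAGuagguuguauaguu
let-7b-5p: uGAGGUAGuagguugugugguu
let-7i-5p: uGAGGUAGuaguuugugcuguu
miR-98-5p: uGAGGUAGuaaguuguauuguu

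In the longest coding transcript of each gene in the GENCODE M21 annotation (GRCm38, the same assembly as mm10), the sense strand of the 3′ UTR was searched for the 7 letters that pair with the seed, CTACCTC, and for the 8 letters CTACCTCA, which contain the former and add the A that faces the first base of let-7. All 7 genes held at least 1 match of either kind, 17 in all, and 6 of them held the 8-base form, 9 in all; Hmga1 held only the 7-base form. Among the 13460 genes tested whose 3′ UTR could be read, 3.60% held the 8-base and 10.3% the 7-base match. The 7 genes were chosen as let-7 regulated, so a larger share with matches among them is no separate finding. UTR length differs between genes: among the 2154 genes with a UTR at least as long as that of Hmga2, 9.01% held the 8-base match. One match per gene is given here with the 14 bases before it, and the match itself is in capitals.
Hmga1, chr17:27563278-27563298, + strand: cctctgttcacaaaCTACCTC
Hmga2, chr10:120364224-120364245, - strand: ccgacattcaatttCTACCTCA
Lin28a, chr4:134005189-134005210, - strand: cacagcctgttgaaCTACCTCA
Lin28b, chr10:45381022-45381043, - strand: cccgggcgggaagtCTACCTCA
Igf2bp1, chr11:95961778-95961799, - strand: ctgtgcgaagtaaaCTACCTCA
Igf2bp2, chr16:22059473-22059494, - strand: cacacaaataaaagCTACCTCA
Igf2bp3, chr6:49086787-49086808, - strand: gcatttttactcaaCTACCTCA

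Counted from the stop codon, the 8-base match of Hmga2 begins at base 58 of a UTR of 3014 bases, and that of Lin28b at base 36 of 4445. Hmga2 and Lin28b each held 3 further 7-base matches. Igf2bp1 has the longest of the 7 UTRs (6337 bases) and held 3 matches of the 8-base form, and Lin28a held 2. A match describes the letters only; whether let-7 binds there was not measured.

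**Figure D1:**
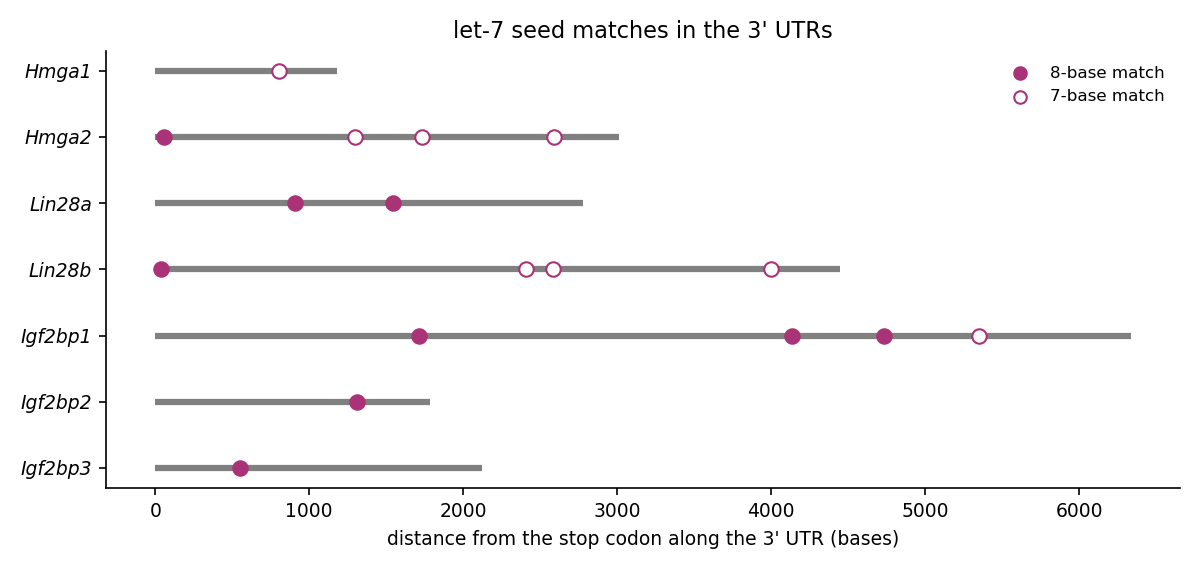
Position of let-7 seed matches in the 3′ UTR of each of the 7 genes. The x axis is the distance from the stop codon in bases, grey lines span the whole UTR, filled circles are 8-base and open circles 7-base matches. The first match of Hmga2 and Lin28b begins at or before base 58 of the UTR, and Hmga1 holds a single 7-base match.

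All 7 libraries had values above 0 for the 11 neural stem cell markers chosen, with Nes at 61.1 to 240.5 FPKM and Sox2 at 69.4 to 194 FPKM. Hes5, with the lowest mean of the 11, was at 0.278 to 6.72 FPKM, and its lowest values may not be told from no expression. Med23 itself, the targeted gene, was at 10.3, 12.9, 11.4 and 10.1 FPKM in control, against 9.97, 9.27 and 8.12 FPKM in Med23 CKO. All 3 Med23 CKO values lay below the control values, as for 1.53% of all genes tested. The difference was -0.26 on the log2 scale (SE 0.18, adjusted p = 1.0 by limma). Only part of the gene is floxed, so a value over the whole transcript measures the deletion only in part. The share of unrecombined cells in these values was not tested. The study reported loss of Med23 by qRT-PCR of primary neurospheres and by western blot of hippocampal tissue. The microglia and macrophage markers summed to between 20.8 and 117.3 FPKM in control, against between 21.4 and 546 FPKM in Med23 CKO, with the highest sum in KO_214. The endothelial markers summed to 6.98 to 57.2 FPKM in control, against 5.77 to 95.1 FPKM in Med23 CKO, and the cell cycle genes to 611 to 2110 FPKM in control, against 349 to 2678 FPKM in Med23 CKO. KO_214 thus stood apart from the other libraries, and the differences of the 4 genes tested and of the marker lists are given with and without it. In such bulk samples, fewer cells of a type and less RNA per cell cannot be told apart.

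Among the 7 genes, Hmga1 had the highest level, followed by Hmga2, Igf2bp2 and Igf2bp3, whereas Igf2bp1, Lin28b and Lin28a were near 0 (FPKM is per length, so levels can be set side by side). Over all 7 libraries the mean was 52.4 FPKM for Hmga1, 9.004 for Hmga2, 2.50 for Igf2bp2 and 0.81 for Igf2bp3. Hmga1 stood above Hmga2 without overlap, its lowest library being at 32.3 FPKM and the highest of Hmga2 at 15.1 FPKM. Hmga2 exceeded Igf2bp2 in 7 of 7 libraries and Igf2bp2 exceeded Igf2bp3 in 6 of 7, but the ranges of these neighbours overlapped. Igf2bp3 lay above Igf2bp1 in every library, with no overlap, and the order of Igf2bp1, Lin28b and Lin28a changed between libraries.

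Deletion of Med23 was not accompanied by a difference that passed the test in any of the 4 genes tested. The study, by its own test (Cuffdiff) and with n = 3 given for each group, names Hmga2 among the downregulated genes. It also names Igf2, Cdkn2a and Myc there. The test and the number of control libraries used here differ from those of the study. Differences were fitted with limma on log2(FPKM + 1) over the 14151 genes with a mean of at least 0.5 FPKM, a filter that Hmga1, Hmga2, Igf2bp2 and Igf2bp3 passed and Lin28a, Lin28b and Igf2bp1 did not. Of the 4 genes tested, 0 had an adjusted p under 0.05, as did 0 of all genes tested (0%). At an unadjusted p under 0.05, again 0 of the 4 were lower or higher, against 0.996% of all genes tested that were lower and 0.502% that were higher in Med23 CKO. In 0 of the 4 did the 3 Med23 CKO values lie entirely below the control values, which 1.53% of all genes tested did, or entirely above them, which 0.784% did. The difference was negative for both Hmga genes and positive for both Igf2bp genes.

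**Figure D2:**
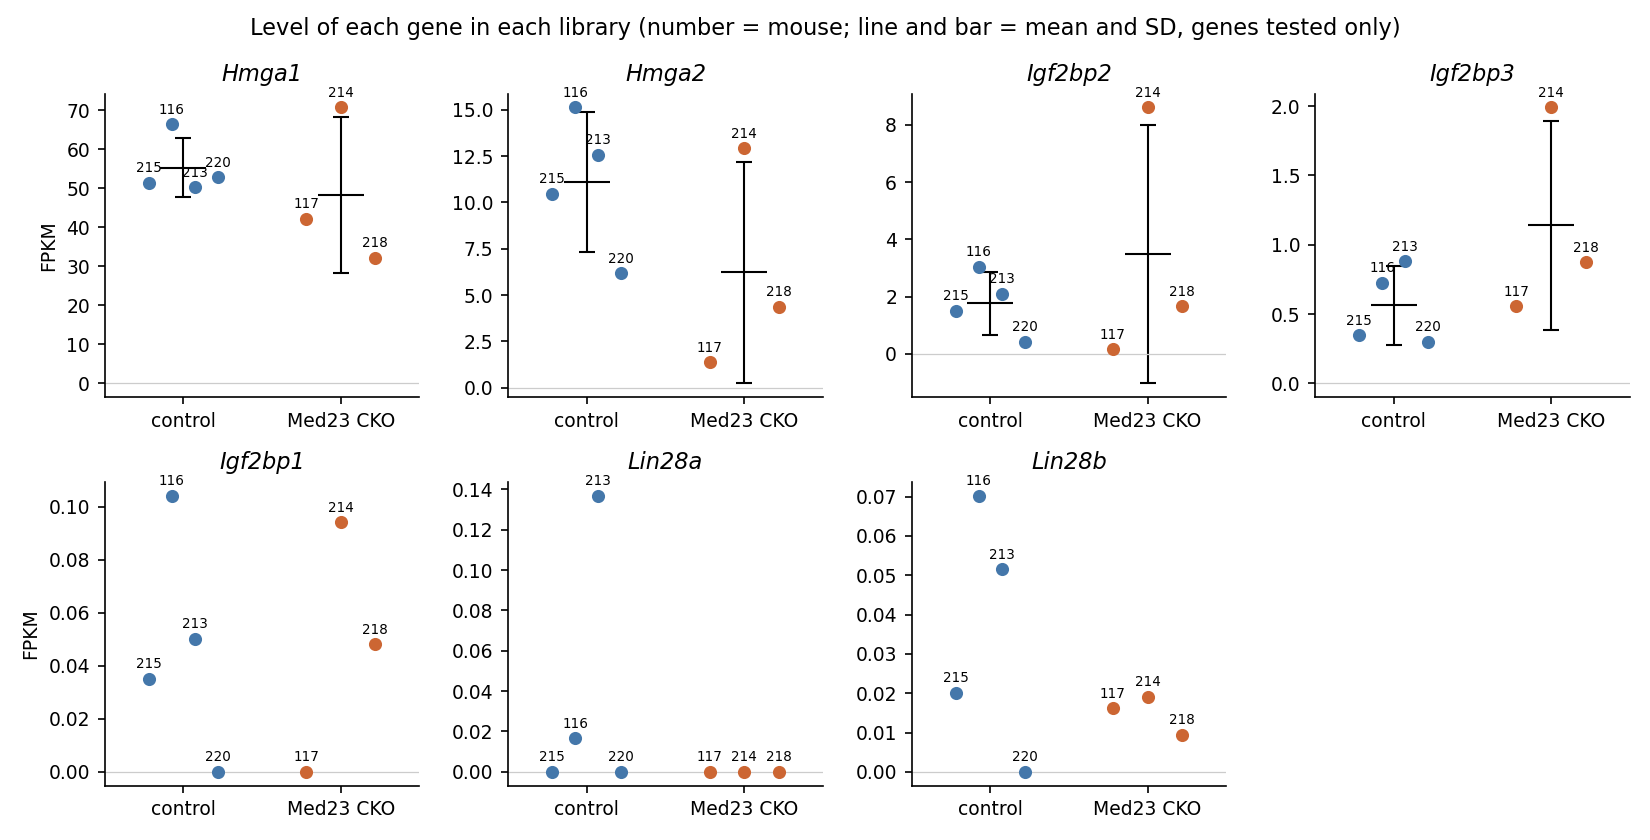
FPKM of the 7 genes in each library, with control in blue and Med23 CKO in orange; each panel has its own y axis, points carry mouse numbers, and lines with bars are the mean and SD for genes tested. Hmga2 ranges from 1.38 to 15.1 FPKM, Lin28a is listed at 0 in all Med23 CKO libraries, and the groups overlap in every panel.

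Hmga1 (chromosome 17, 27556497 to 27563674, + strand) was measured at 66.5, 50.3, 51.5 and 52.8 FPKM in control, against 42.2, 70.8 and 32.3 FPKM in Med23 CKO. KO_117 and KO_218 were below every control library, whereas KO_214 was above all of them. Means were 55.3 ± 7.56 (SD, n = 4) and 48.4 ± 20.01 FPKM (SD, n = 3). The log2 difference of Hmga1 was -0.25 (SE 0.27, 95% interval -0.89 to 0.38, adjusted p = 1.0 by limma), and the two-sided exact permutation p over the 35 assignments of libraries to groups was 0.457, where 0.0286 is the smallest possible. Without KO_214 it was -0.56 (adjusted p = 1.0 by limma, unadjusted p under 0.05), and without KO_218 it was -0.01.

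At its 3′ end Hmga1 shares 102 exonic bases with AI413582 on the opposite strand, a gene at 22.2 to 124 FPKM, and whether the counting used strand was not given in the sources used here.

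Hmga2 (chromosome 10, 120361275 to 120476469, - strand) showed the largest difference of the 4 genes tested. It was at 15.1, 12.6, 10.5 and 6.18 FPKM in control, against 1.38, 12.9 and 4.37 FPKM in Med23 CKO. KO_117 and KO_218 were below all 4 control libraries, and KO_214 was above all but WT_116. Means were 11.1 ± 3.79 (SD, n = 4) and 6.22 ± 5.98 FPKM (SD, n = 3). The log2 difference was -1.04 (SE 0.58, 95% interval -2.40 to 0.31, adjusted p = 1.0 by limma), with an exact permutation p of 0.229.

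Single libraries set the size of the Hmga2 difference. Without KO_214 it was -1.70 (SE 0.44, adjusted p = 1.0 by limma, unadjusted p under 0.05, as for 2.04% of all genes tested in that fit), and without KO_117 it was -0.42 (SE 0.46, adjusted p = 0.701). Leaving out any of the 5 other libraries gave between -1.27 and -0.88. The spread of Hmga2 within Med23 CKO, 2.55 on the log2 scale from lowest to highest library, was wider than the difference between the groups, and within control it was 1.17. A pseudogene listed as Hmga2-ps1 was at 0 to 1.36 FPKM in control, against 0.217 to 2.87 FPKM in Med23 CKO.

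**Figure D3:**
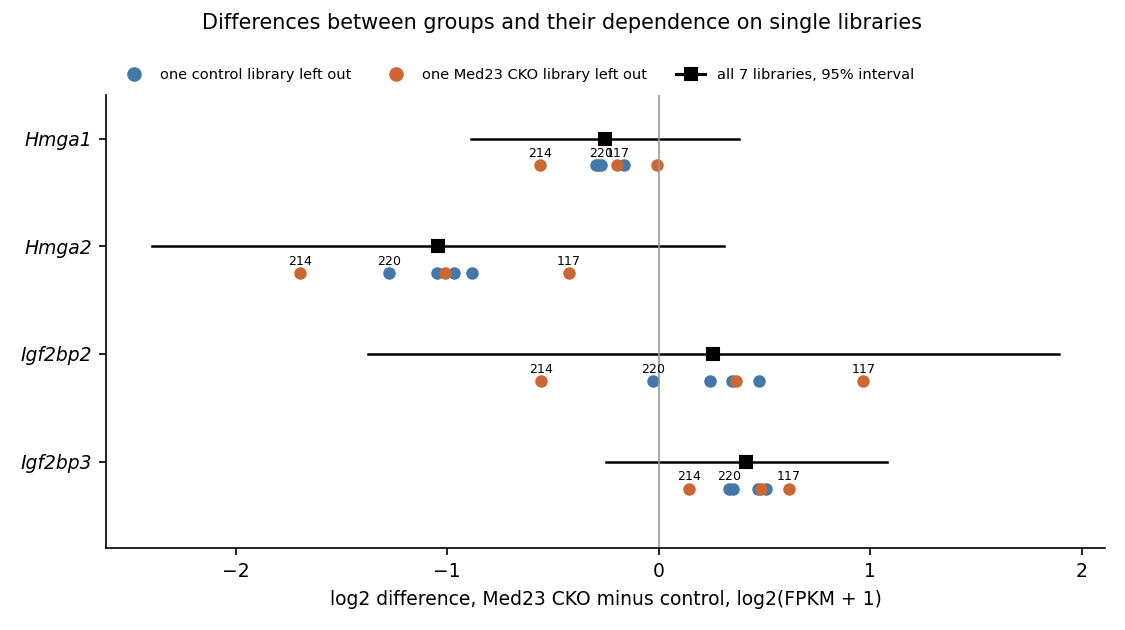
Log2 difference (Med23 CKO minus control, log2(FPKM + 1)) of the 4 genes tested. Squares with lines are the limma estimate and 95% interval from all 7 libraries, blue and orange points are the estimates without one control or one Med23 CKO library, and numbers mark KO_117, KO_214 and WT_220. All 4 intervals include 0, Hmga2 moves from -1.70 to -0.42 with the library left out, and Igf2bp2 crosses 0.

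The let-7 inhibitors were near the bottom of the table. Lin28a (chromosome 4, 134003330 to 134018841, - strand) was listed at 0 in 2 control libraries and in all 3 Med23 CKO libraries, at 0.0168 FPKM in WT_116 and at 0.137 FPKM in WT_213. Lin28b (chromosome 10, 45376620 to 45486395, - strand) was at 0.0702, 0.0516, 0.0201 and 0 FPKM in control, against 0.0162, 0.0191 and 0.00949 FPKM in Med23 CKO, so that the groups overlapped. In mean FPKM, 25.5% of the listed genes lay below Lin28a and 26.3% below Lin28b. The depth of the libraries is unknown, so that such values cannot be told from no expression, and neither gene was tested.

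Of the Igf2bp genes, Igf2bp1 (chromosome 11, 95957163 to 96005940, - strand) was at the same low level, with 0.104, 0.0502, 0.0351 and 0 FPKM in control, against 0, 0.0941 and 0.0482 FPKM in Med23 CKO. WT_220 and KO_117 were listed at 0, and all 3 Med23 CKO values lay within the control range. It was not tested.

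Igf2bp2 (chromosome 16, 22059009 to 22163299, - strand) was the most variable of the 7 genes among those measured in every library. It was at 3.05, 2.10, 1.52 and 0.426 FPKM in control, against 0.161, 8.61 and 1.67 FPKM in Med23 CKO, which is a 53.5-fold range from KO_117 to KO_214. The Med23 CKO group held both the lowest and the highest library. Means were 1.77 ± 1.098 (SD, n = 4) and 3.48 ± 4.51 FPKM (SD, n = 3). The log2 difference was 0.26 (SE 0.70, 95% interval -1.38 to 1.90, adjusted p = 1.0 by limma) with an exact permutation p of 0.886, and without KO_214 its direction reversed to -0.56.

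Igf2bp3 (chromosome 6, 49085223 to 49214957, - strand) was at 0.724, 0.880, 0.348 and 0.300 FPKM in control, against 0.555, 1.99 and 0.873 FPKM in Med23 CKO. KO_214 was the highest library and the 2 other Med23 CKO libraries lay within the control range. Means were 0.563 ± 0.284 (SD, n = 4) and 1.14 ± 0.754 FPKM (SD, n = 3), and the log2 difference was 0.41 (SE 0.28, 95% interval -0.25 to 1.08, adjusted p = 1.0 by limma) with an exact permutation p of 0.2. Without KO_214 the difference was 0.14. Igf2bp3 shares 1529 of its 8159 annotated exonic bases with Malsu1 on the opposite strand, a gene at 20.5 to 29.4 FPKM, so that part of its low value cannot be told apart from Malsu1 where reads were counted without strand.

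Within each group, Hmga2, Igf2bp2, Igf2bp3 and Igf2bp1 had an order of libraries that followed marker levels of the cultures in part. WT_220 and KO_117, the lowest libraries of their groups for all 4 genes (with 0 FPKM for Igf2bp1), had the highest mean of the 26 cell cycle genes in their groups, 5.98 and 6.34 as log2(FPKM + 1), and the lowest mean of the 10 microglia and macrophage markers, 1.14 and 1.199. They were also the lowest of their groups for the astrocyte (4.10 and 3.84), endothelial (0.888 and 0.797), mural and fibroblast (0.874 and 0.787) and oligodendrocyte lineage means (6.29 and 5.10). Not every gene of these lists followed its mean. Aldh1l1 of the astrocyte list (197 and 123 FPKM) and Olig1 and Olig2 of the oligodendrocyte list were highest of their groups in WT_220 and KO_117. KO_214, the highest Med23 CKO library for all 4, had the lowest cell cycle mean of all libraries (2.98) and the highest microglia and macrophage (4.25), astrocyte (6.04), endothelial (3.51) and mural and fibroblast means (4.62). Mbp, a myelin protein of oligodendrocytes, was at 2234, 1023, 838 and 237.6 FPKM in control, against 66.5, 1515 and 1195 FPKM in Med23 CKO, the same order within each group as for Hmga2 and Igf2bp2. Of the defining microglia markers, Tmem119 was at 4.04 FPKM in KO_214 and at 0.0269 to 0.414 FPKM in the other libraries, whereas Cx3cr1 was at or under 0.782 FPKM in all 7. The part of any of these cells in the values of the 4 genes was not tested.

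**Figure D4:**
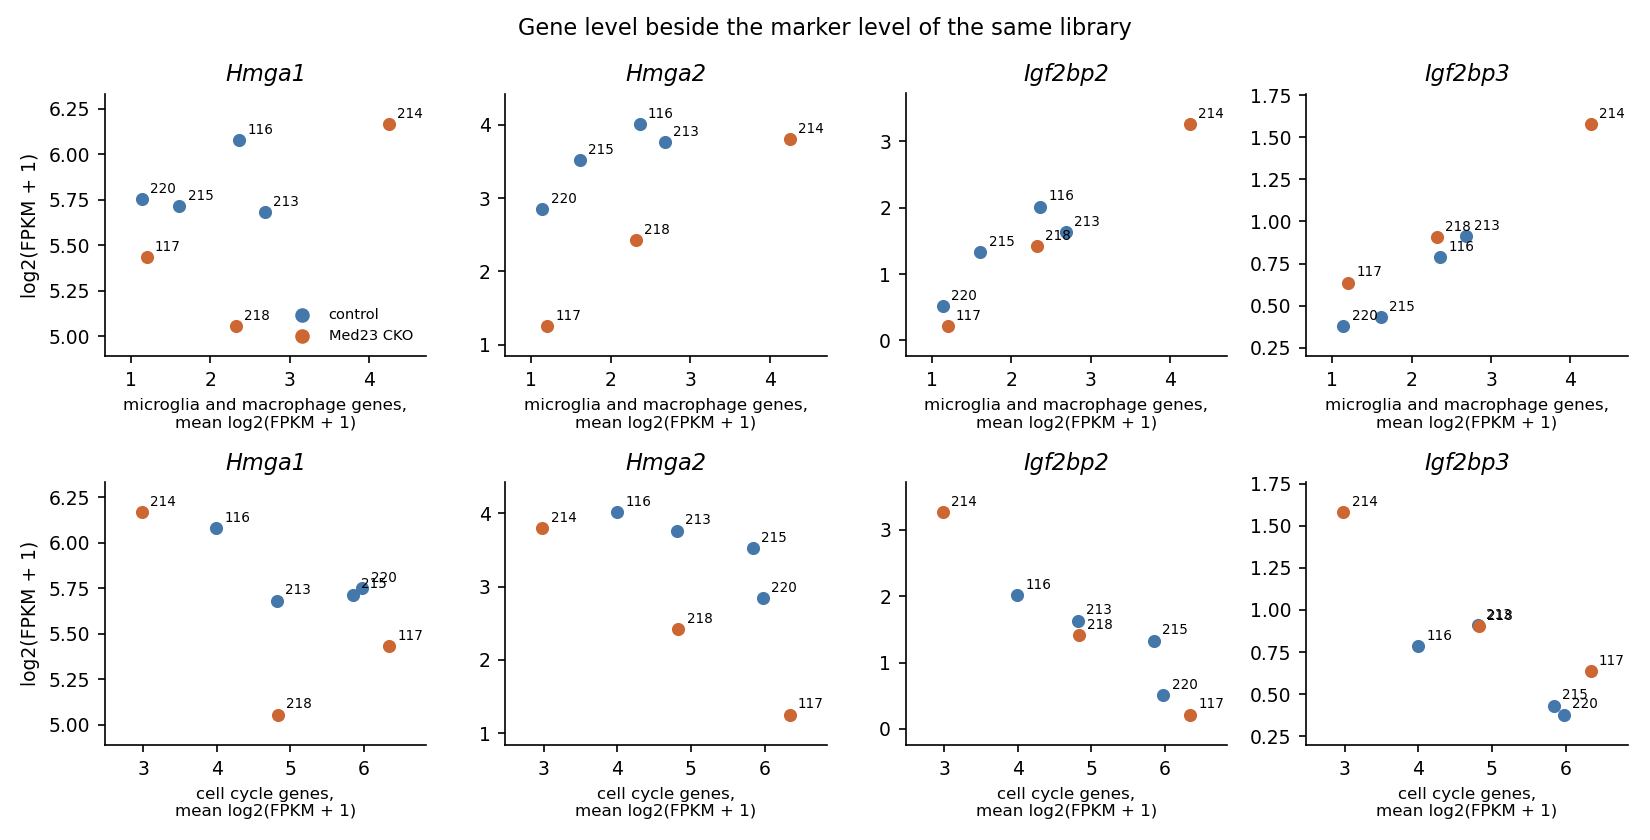
Level of Hmga1, Hmga2, Igf2bp2 and Igf2bp3 (y axis, log2(FPKM + 1)) against the mean log2(FPKM + 1) of the microglia and macrophage markers (top) or of the cell cycle genes (bottom) in the same library, with control in blue, Med23 CKO in orange and mouse numbers beside the points. Igf2bp2 and Igf2bp3 are highest in KO_214, which has the highest marker mean (4.25) and the lowest cell cycle mean (2.98); for Hmga2, KO_117 and KO_218 lie below all control libraries.

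When the mean of these markers was put into the fit as a covariate, an alternative chosen after the data were seen, Hmga2 and Igf2bp2 gave unlike values. With the microglia and macrophage mean, the Hmga2 difference was -1.54 (SE 0.22, adjusted p = 0.536), and with the cell cycle mean it was -1.34 (SE 0.22, adjusted p = 0.295). Igf2bp2 was at -0.35 (SE 0.24, adjusted p = 1.0) and -0.10 (SE 0.25, adjusted p = 0.999) in the same fits. Hmga1 was at -0.40 (SE 0.23) and -0.34 (SE 0.21), and Igf2bp3 at 0.21 (SE 0.16) and 0.30 (SE 0.18). Both covariates come from the same 7 libraries. KO_214 had the highest microglia and macrophage mean (4.25) and the lowest cell cycle mean (2.98), so these fits are not independent of the weight of that library. An unadjusted p under 0.05 was reached by 3.94% of all genes tested with the microglia and macrophage covariate and by 4.32% with the cell cycle covariate, against 1.498% without. Hmga2 was among these genes with either covariate. Over all alternatives the adjusted p of Hmga2 ranged from 0.295 to 1.0, so that the call was the same in each.

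The genes whose levels over the 7 libraries were most like each of the 4 are given as a description, since 14150 genes were searched over only 7 libraries, which differed in their marker levels as above and whose depth is unknown. For Hmga1 these were Map3k14, Sirt7 and Hectd3 (Pearson's r of 0.98, 0.97 and 0.97, Spearman's rho of 1, 0.96 and 0.93, and r of 0.96, 0.90 and 0.96 without the 2 libraries farthest from the median). For Hmga2 these were Elmo1, Cldn14 and Meg3 (r of 0.97 each, rho of 0.93, 0.93 and 0.86, and r of 0.97, 0.95 and 0.81 without the 2 libraries). For Igf2bp2 these were Mgll, Csf1 and Capn1 (r of 0.997, 0.996 and 0.994, rho of 1 each, and r of 0.993, 0.998 and 0.996 without the 2 libraries). For Igf2bp3 these were D930048N14Rik, Foxc1 and Ripk1 (r of 0.99 each, rho of 0.96, 1 and 1, and r of 0.98, 0.98 and 0.94 without the 2 libraries). Elmo1, an adaptor of Rac activation and the gene most like Hmga2, was at 19.8, 14.6, 14.9 and 9.65 FPKM in control, against 5.59, 17.1 and 10.5 FPKM in Med23 CKO. Csf1, the growth factor of macrophages, was at 22.9, 18.3, 15.8 and 9.48 FPKM in control, against 9.37, 41.1 and 16.9 FPKM in Med23 CKO.

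The let-7 genes themselves were not measured by this assay, as the 12 listed in the table were at 0 FPKM in every library, which a library of long RNA gives whether or not the mature forms are present. Their host transcripts were measured for 5 genes whose RefSeq span (GRCm38.p6) holds a let-7 gene on the same strand. 3110039I08Rik, now named Mir100hg and host of let-7a-2, was at 17.8, 18.3, 15.4 and 15.6 FPKM in control, against 23.7, 20.6 and 23.1 FPKM in Med23 CKO. All 3 Med23 CKO libraries lay above all 4 control libraries, as did 0.784% of all genes tested. Its log2 difference was 0.40 (SE 0.16, 95% interval 0.04 to 0.77, unadjusted limma p = 0.0345, adjusted p = 1.0), with an exact permutation p of 0.0286, the smallest the design allows. Leaving out single libraries gave between 0.37 and 0.46, with an unadjusted p under 0.05 only without KO_214.

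The 4 other hosts overlapped between the groups. Lincppara, which holds let-7c-2 and let-7b, was at 1.02 to 2.15 FPKM in control, against 4.80, 2.03 and 1.67 FPKM in Med23 CKO (log2 difference 0.50, SE 0.32, adjusted p = 1.0 by limma). Wdr82, host of let-7g, differed by -0.03 (SE 0.35), Huwe1, host of let-7f-2 and miR-98, by -0.11 (SE 0.22), and Spaca6, host of let-7e, by 0.04 (SE 0.23) on the log2 scale. Host transcripts are not the mature RNAs, and how much let-7 the cultures held is not shown by them.

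The let-7 processing machinery was expressed throughout, and all 18 genes of the list were tested. None passed the adjusted or the unadjusted threshold, and the median difference was -0.10 on the log2 scale, beside -0.03 over all genes tested. Dicer1, which cuts let-7 precursors, was at 12.4 ± 1.29 (SD, n = 4) among controls and at 11.1 ± 2.27 FPKM (SD, n = 3) in Med23 CKO. Drosha differed by -0.19 (SE 0.28), and Zcchc11 and Dis3l2, which uridylate and degrade let-7 precursors bound by Lin28a, differed by -0.22 (SE 0.22) and -0.24 (SE 0.28). In all, 15 of the 18 (83.3%) were lower and 3 higher in Med23 CKO, beside 56.2% lower among all genes tested. Without KO_214, 8 of the 18 were lower and 10 higher.

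Among 36 other genes known or proposed as let-7 targets, 33 were tested, with 21 lower (63.6%) and 12 higher in Med23 CKO and a median difference of -0.08. Of all genes tested, 56.2% were lower. At an unadjusted p under 0.05, 0 were lower and 1 was higher (3.03% of those tested), against 0.996% lower and 0.502% higher among all genes tested. Leaving out single libraries moved the median of these targets over -0.15 to 0.03. That gene was Tgfbr1, a receptor for TGF-β, at 9.62, 10.4, 12.1 and 8.03 FPKM in control, against 14.2, 15.1 and 14.8 FPKM in Med23 CKO. Its log2 difference was 0.52 (SE 0.19, adjusted p = 1.0), and the groups did not overlap, as for 0.784% of all genes tested in that direction. When single libraries were left out, the unadjusted limma p of Tgfbr1 was under 0.05 only without WT_213, WT_215 or KO_117. Ccnd1, cyclin D1 of the G1 phase, was at 564 to 828 FPKM in control, against 371 to 603 FPKM in Med23 CKO (log2 difference -0.57, SE 0.25, adjusted p = 1.0). Myc was at 18.97 to 94.1 FPKM in control, against 16.4 to 54.6 FPKM in Med23 CKO, with a log2 difference of -0.74 (SE 0.61). Trim71, a let-7 target of early embryos, stayed at or under 0.124 FPKM in all libraries and was not tested.

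Genes that act with or downstream of the 7 numbered 12, of which 10 were tested. At an unadjusted p under 0.05, 1 of the 10 was lower and 0 were higher, against 0.996% and 0.502% of all genes tested, and the median difference was -0.24. The lower gene was Cdkn2b, which encodes the cell cycle inhibitor p15 beside the Cdkn2a locus that Hmga2 is known to repress in neural stem cells. It was at 20.1, 28.05, 26.6 and 40.01 FPKM in control, against 7.95, 25.9 and 10.3 FPKM in Med23 CKO, so that KO_214 lay within the control range, and its log2 difference was -1.05 (SE 0.41, adjusted p = 1.0). When single libraries were left out, the unadjusted limma p of Cdkn2b was under 0.05 only without WT_116 or KO_214. Cdkn2a was at 10.8, 56.4, 41.7 and 114 FPKM in control, against 45.2, 11.1 and 21.4 FPKM in Med23 CKO (log2 difference -0.88, SE 0.78), with overlapping groups. Igf2, whose mRNA gave the Igf2bp proteins their name, was at 0.390, 0.280, 2.50 and 0.114 FPKM in control, against 0.0134, 0.414 and 0.256 FPKM in Med23 CKO. Its log2 difference was -0.42 (SE 0.41), the groups overlapped, and WT_215 alone set the upper end of the control range.

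**Figure D5:**
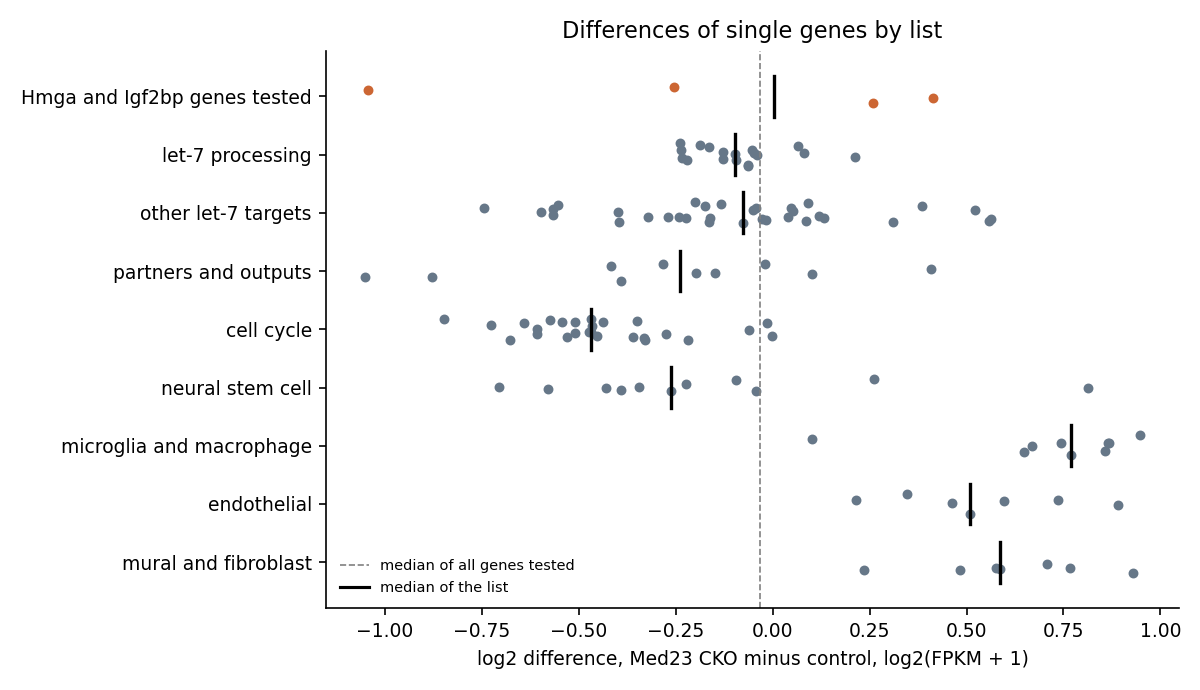
Log2 difference (Med23 CKO minus control, log2(FPKM + 1)) of each gene tested, by list; every point is a gene, black bars are list medians and the dashed line is the median of all genes tested (-0.03). Hmga2, at -1.04, is the lowest of the 4 orange points. All 26 cell cycle genes lie at or below 0 and the microglia, endothelial and mural markers above 0, and these directions turned for most or all of those genes without KO_214.

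As a group, genes with a let-7 match in their 3′ UTR had a median difference close to that of all genes. Of the 484 genes tested with the 8-base match, 259 (53.5%) were lower and 225 higher in Med23 CKO. Among all 13460 genes whose UTR was read, 56.0% were lower. The median log2 difference of the 484 was -0.02, beside -0.03 for the 13460. At an unadjusted p under 0.05, 6 of the 484 (1.24%) were lower and 4 (0.826%) were higher, beside 0.958% and 0.490% of the 13460. Among the 21 genes with 2 or more 8-base matches, 12 were lower and 9 higher and the median was -0.02. For the 1380 genes with the 7-base match the median was -0.03.

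The marker lists showed how far a single library sets such directions. All 26 cell cycle genes had a negative or near 0 difference (median -0.47, 0 with an unadjusted p under 0.05), but without KO_214 all 26 were higher (median 0.41). The 9 microglia and macrophage markers tested were all higher (median 0.77), and without KO_214 7 of the 8 still tested were lower (median -0.25). The 7 endothelial markers had a median of 0.51 and the 7 mural and fibroblast markers one of 0.59, and without KO_214 these were -0.12 (7 tested) and -0.52 (5 tested). The 11 neural stem cell markers had a median of -0.26, which was -0.11 without KO_214 and between -0.54 and -0.10 when other libraries were left out. The 6 astrocyte markers had a median of 0.39, which turned to -0.05 without KO_214 and was 1.02 without KO_117. The 7 oligodendrocyte lineage markers had a median of -0.73, which was -1.33 without KO_214 and turned to 0.40 without KO_117. The 6 neuron and neuroblast markers had a median of -0.23, which was -0.22 without KO_214 and turned to 0.07 without WT_116. With all 7 libraries, 0 of the genes of these 4 lists passed an unadjusted p under 0.05 in limma.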

How the data were processed

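RNA of 8-day primary neurospheres from single mice (4 control and 3 Med23 CKO) was prepared with the NEBNext Ultra RNA kit and sequenced on an Illumina HiSeq. Per the study's methods and submitters' notes, the authors checked reads with FastQC, removed adapters with cutadapt, aligned to mm10 with TopHat and calculated FPKM with Cuffdiff; the annotation used was not given in the sources used here. The deposited FPKM of each library were used. The authors' group means, fold changes, test scores, p-values and q-values were not used. The study gives n = 3 in each group, and the table holds 4 control libraries, all of which entered. Depth per library is unknown, so no interval for counting error is given, and the number of libraries limits the precision. The 7 libraries had 16841 to 18113 genes above 0.

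Values were analysed as log2(FPKM + 1) for 14151 genes, those whose FPKM averaged 0.5 or more over the libraries, with limma 3.58.1 (lmFit, eBayes with trend) in R 4.3.3 and Benjamini-Hochberg adjustment over all genes tested; intervals are 95%. Single genes were also tested by two-sided exact permutation over the 35 assignments of libraries. Fold changes on this scale understate those of low genes. The fit was tested on simulated data. UTRs, loci and overlaps were read from GENCODE M21, and let-7 sequences and hosts from RefSeq (GRCm38.p6); 95.1% of genes tested had a UTR.

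The genes, lists and tests were chosen with earlier results of these data known. Genes named are the 7, Med23, list genes, let-7 hosts and, for each gene tested, the 3 with the highest Pearson's r; 1 further item is not reported here. Alternatives were a pseudocount of 0.1, no filter, a minimum mean FPKM of 1, quantile normalization, median centring, limma without trend, robust or with array weights, the leading digit of mouse numbers as covariate, the ratio of group means and each library left out; marker covariates were added after seeing the data. Mouse numbers are not shared between groups, so no replicate was paired.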

Additional observations from a re-analysis of the deposited data

Results flagged for a closer look

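Of 13 genes examined for a control library far from the other 3, 1 stood out: Lin28a was at 0.137 FPKM in WT_213, while the other control libraries were at 0, 0 and 0.0168 FPKM. The gap to the nearest library was more of the range than a 95% critical value allows for 4 samples. Chance gives about 1 such case in 20 groups, and at values this near 0 a few fragments can set it.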

How the results depend on the processing

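With 7 libraries of unknown depth, 95% intervals reached from -2.40 to 0.31 for Hmga2, so a difference of the size of its estimate could pass unseen. No gene passed an adjusted p under 0.05 in the main setting or in 16 of 18 alternatives; leaving out single libraries gave 0 to 1 genes, with 1 without KO_214 and 1 without KO_218. Lin28a, Lin28b and Igf2bp1 did not enter the fits that follow, which leaves 4 of the 7 genes. Array weights put 2 of these 4 at an unadjusted p under 0.05 (Hmga1 and Hmga2), beside 7.63% of all genes tested. The cell cycle covariate put 1 there and the microglia covariate 1 (Hmga2 in both), beside 4.32% and 3.94% of all genes tested. Leaving out single libraries put 0 to 2 there. The 2 were Hmga1 and Hmga2 without KO_214, beside 2.04% of all genes tested in that fit.

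The direction of Hmga1, Hmga2 and Igf2bp3 was the same in all of their 19, 19 and 18 alternatives (Igf2bp3 was below the filter at a mean FPKM of at least 1), over -0.56 to -0.01, -1.70 to -0.42 and 0.14 to 1.02. Igf2bp2 reversed in 4 of 19: to -0.03 without WT_220, -0.56 without KO_214, -0.10 with the cell cycle covariate and -0.35 with the microglia covariate. Left-out libraries gave Igf2bp2 -0.56 to 0.97. Host gene 3110039I08Rik kept its direction over 0.37 to 0.46, and Med23, Cdkn2b, Tgfbr1 and Ccnd1 kept theirs. The cause of these reversals was not tested. The 7-base match gave a median of -0.03 for genes with let-7 sites. No paired analysis was possible because the groups share no mouse number.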
